A study of Mus musculus with 7 samples.

Results

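Among 9 transcription factor genes of lymphatic endothelial lineage and of lymphatic valves, Sox18 alone passed the test, and it was higher in lymphatic endothelial cells from mouse ear melanomas than in those from naive ear skin. Gata2, Foxc1, Prox1, Nfatc1, Tbx1 and Nr2f2 had lower mean levels in the melanoma libraries, at 62.7% to 77.5% of naive by the fitted fold, but none of them passed. Foxc2 and Hhex stood at 90.3% and 98.8% of naive, and they too did not pass. The 9 genes were chosen by symbol (Prox1, Sox18, Nr2f2, Foxc1, Foxc2, Gata2, Nfatc1, Tbx1 and Hhex) from the 26608 entries of the deposited count table. All 9 were found, and all 9 were among the 13453 genes with enough counts to be tested.

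The study sequenced RNA of lymphatic endothelial cells, which form the inner wall of lymph vessels, in 4 libraries from BPC melanomas of the ear pinna (called tumour here) and 3 from naive ear pinna skin. Tumour mice were BrafCA/+; pten l/l; Cre+. Mice of naive replicates 1 and 3 were BrafCA/+; pten l/l; Cre-, and naive replicate 2 joined that genotype with Braf+/+;pten l/l Cre+, so every library carried pten l/l. The labels give male mice for tumour replicates 1 and 2 and naive replicate 3, female mice for tumour replicates 3 and 4 and naive replicate 2, and both sexes pooled for naive replicate 1. The sources used here do not give the promoter that drives Cre, the age of the mice, how the cells were sorted or how many mice made up a library. The titles number each tumour differently, and the naive libraries differ in sex or genotype. The sources do not say whether any of the libraries shared mice. A p-value covers the spread among these libraries, in which technical spread and differences between mice cannot be told apart.

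Prox1 encodes the homeobox factor that sets and keeps lymphatic identity. In the mouse embryo Sox18 and Nr2f2 (also called COUP-TFII) switch on Prox1 in venous endothelium, and Nr2f2 protein then partners with Prox1 protein. Gata2, Foxc2 and Nfatc1 act with Prox1 in the cells that form lymphatic valves, the flaps that keep lymph moving one way.

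Total counts were 52940832 to 62947508 in the tumour libraries and 59735153 to 63032175 in the naive libraries. The members were deeply covered, with 2296 (Foxc2) to 82648 (Nfatc1) counts in tumour libraries and 2634 (Foxc2) to 95816 (Nfatc1) counts in naive libraries, so the spread between libraries, not counting error, set the precision. Levels are given as CPM, counts scaled by the effective library size. Of 13453 genes tested, 229 passed an adjusted p of 0.05 (edgeR's quasi-likelihood test, Benjamini-Hochberg adjustment), 121 higher and 108 lower in tumour, a split that became 156 to 92 with upper-quartile scaling. The markers of lymphatic endothelium Prox1, Lyve1, Pdpn, Flt4, Ccl21a, Reln, Mmrn1, Pecam1 and Cdh5 were all present in every library, with Mmrn1 at 3591 to 5463 CPM in tumour and 4811 to 7009 CPM in naive libraries. Transcripts of other cells were present too. Summed over 12 fibroblast markers the level was 1788 to 18334 CPM in tumour, highest in tumour replicate 4, and 652 to 1227 CPM in naive libraries, and over 10 myeloid markers it was 219.8 to 495 CPM in tumour and 114 to 155 CPM in naive libraries. Melanocyte and melanoma markers, 8 in all, summed to 18.5 to 226 CPM in tumour and 1.24 to 6.62 CPM in naive libraries, so these 3 sums did not overlap between the groups. Of tested markers, edgeR called 2 of 12 fibroblast, 3 of 8 myeloid and 2 of 6 melanocyte genes higher, beside 0.899% of all genes tested, and all of these tested markers had positive log2 fold changes. DESeq2 called 8, 5 and 5 of them, beside 10.8% of all genes it adjusted, and limma-voom 0, 0 and 0, beside 269 of all genes tested. Ptprc, Adgre1, Itgam and Mlana were at 0 in all naive libraries. In tumour replicates 1 to 4, Ptprc had 0, 3, 0 and 378 counts and Itgam 12, 0, 0 and 501 counts. Most counts of both came from tumour replicate 4, and neither passed the filter on counts. Mlana had 0, 89, 29 and 96 counts and Adgre1 76, 312, 631 and 1214 counts in the same libraries. The part of these cells in the results below was not tested.

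The promoters of Prox1, the central gene of the lineage, and of Foxc1 and Tbx1, the 2 genes with lower levels whose groups did not overlap, are shown with the binding motifs of the set's own families searched in them. RefSeq gave 9 promoter windows for 6 members in GRCm38.p6, each of 300 bases from 250 before to 50 after a transcript start. They were searched on both strands for 6 motifs: AACAAT for SOX factors, AGGTCA for nuclear receptors such as Nr2f2, GTAAACA for forkhead factors, AGATAA for GATA factors, AGGTGT for T-box factors and GGAAAA for NFAT factors. Capitals mark the matches. Prox1 and Tbx1 each had another window, without a match, that is not printed. The first sequence is Prox1, chr1:190170778-190171077 on the minus strand, the second Foxc1, chr13:31806396-31806695 on the plus strand, and the third the window of Tbx1 at chr16:18590622-18590921 on the minus strand.
Prox1: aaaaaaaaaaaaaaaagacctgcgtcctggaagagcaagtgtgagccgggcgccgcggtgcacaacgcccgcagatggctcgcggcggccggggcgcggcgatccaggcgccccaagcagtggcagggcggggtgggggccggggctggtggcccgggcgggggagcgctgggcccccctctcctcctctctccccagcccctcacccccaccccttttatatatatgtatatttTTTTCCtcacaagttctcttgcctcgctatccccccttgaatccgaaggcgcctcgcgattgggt
Foxc1: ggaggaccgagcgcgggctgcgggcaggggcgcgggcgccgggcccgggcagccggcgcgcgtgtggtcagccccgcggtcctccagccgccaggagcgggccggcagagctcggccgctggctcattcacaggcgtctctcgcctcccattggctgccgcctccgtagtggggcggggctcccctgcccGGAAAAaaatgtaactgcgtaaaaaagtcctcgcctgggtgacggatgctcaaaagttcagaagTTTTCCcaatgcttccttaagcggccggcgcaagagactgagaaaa
Tbx1: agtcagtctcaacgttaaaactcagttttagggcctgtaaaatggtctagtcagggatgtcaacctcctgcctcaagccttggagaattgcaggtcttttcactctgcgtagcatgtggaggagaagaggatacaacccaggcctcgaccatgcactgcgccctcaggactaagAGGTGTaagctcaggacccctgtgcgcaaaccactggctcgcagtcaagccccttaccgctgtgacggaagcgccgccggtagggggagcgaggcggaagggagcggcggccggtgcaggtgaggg
The Prox1 window held 1 match, the NFAT letters at bases 236 to 241 counted from its 5′ end. The Foxc1 window held 2 NFAT matches, at bases 191 to 196 and 255 to 260, and the Tbx1 window held 1 T-box match at bases 175 to 180. The Nr2f2 window (chr7:70366697-70366996) held 2 NFAT matches, and 5 other windows, of Prox1, Gata2, Tbx1 and Hhex, held none of the 6 motifs. Of all 32851 promoter windows, 23.4% held the NFAT letters, 13.7% the T-box, 16.3% the nuclear receptor, 11.2% the GATA, 10.7% the SOX and 3.65% the forkhead letters. The share of G and C was 57.3% to 75.7% in 8 of the 9 member windows and 49.7% in that of Nr2f2, against a median of 52.7% over all windows. A match is a description of letters, not a site. No window of Sox18, Foxc2 or Nfatc1 was used.

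Sox18 encodes an SRY-box factor that acts upstream of Prox1 in the embryo. Its level was 137, 143, 125 and 131 CPM in tumour replicates 1 to 4, against 78.7, 79.8 and 54.2 CPM in naive replicates 1 to 3. Every tumour library lay above every naive library, and the tumour libraries lay close together, their highest being 1.14 times their lowest, against 1.47 times among the naive libraries. The mean was 134 ± 7.55 CPM in tumour (SD, n = 4) and 70.9 ± 14.5 CPM in naive skin (SD, n = 3), a fold of 1.89. The log2 fold change was 0.92 (SE 0.17, 95% interval 0.52 to 1.31, adjusted p = 0.0412), which ranked Sox18 182nd by p among all genes tested. It was the 1 member of 9 past the threshold (11.1%), beside 1.70% of all genes tested. In the higher direction 0.899% of all genes tested passed, and in the lower direction, where 0 members passed, 0.803%.

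The call of Sox18 stood near the threshold. It was kept under 9 of 9 other scalings, filters and tests (log2 fold change 0.80 to 1.003), and lost with replicate number as a block (adjusted p = 0.186), with lane as a term (adjusted p = 0.409) and when any 1 library was left out, while without 1 library the difference itself stayed at 0.76 to 1.01. Leaving out tumour replicates 1, 2, 3 and 4 in turn gave adjusted p-values of 0.0696, 0.0773, 0.0769 and 0.0821, and leaving out naive replicates 1, 2 and 3 gave 0.112, 0.0940 and 0.103. Sox18 lies on chromosome 2 from 181669836 to 181671640 (minus strand, GRCm38), and in GENCODE M21 no other gene overlaps it or starts within 5000 bases of its start. Blood endothelium also expresses Sox18. Of 11 tested markers of blood endothelium 9 had positive log2 fold changes, with a median of 0.75, and Kdr and Emcn had negative ones. Among them edgeR called 1 (Nrp1, higher), beside 1.70% of all genes tested. DESeq2 called 6 (Flt1, Kdr, Emcn, Plvap, Cd34 and Nrp1), beside 10.8% of all genes it adjusted, and limma-voom 3, beside 269 of all genes tested. The groups did not overlap for 5 of the 11 tested markers, beside 18.0% of all genes tested. Cd34 had 36.5 to 222 CPM in tumour and 10.3 to 14.8 CPM in naive libraries, and Plvap 556 to 704 CPM in tumour and 323 to 459 CPM in naive libraries. Emcn went the other way, at 72.9 to 132 CPM in tumour and 179.6 to 235 CPM in naive libraries. So did Kdr, at 635 to 1073 CPM in tumour and 1060 to 1513 CPM in naive libraries, which overlapped. Summed over all 12 markers, of which Kdr gave the largest share in most libraries, the level was 1655 to 1945 CPM in tumour and 1775 to 2151 CPM in naive libraries. Aplnr, which did not pass the filter on counts, had 1, 1, 0 and 39 counts in tumour replicates 1 to 4 and 0 in all naive libraries. The part of blood endothelium in the Sox18 difference was not tested.

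**Figure D1:**
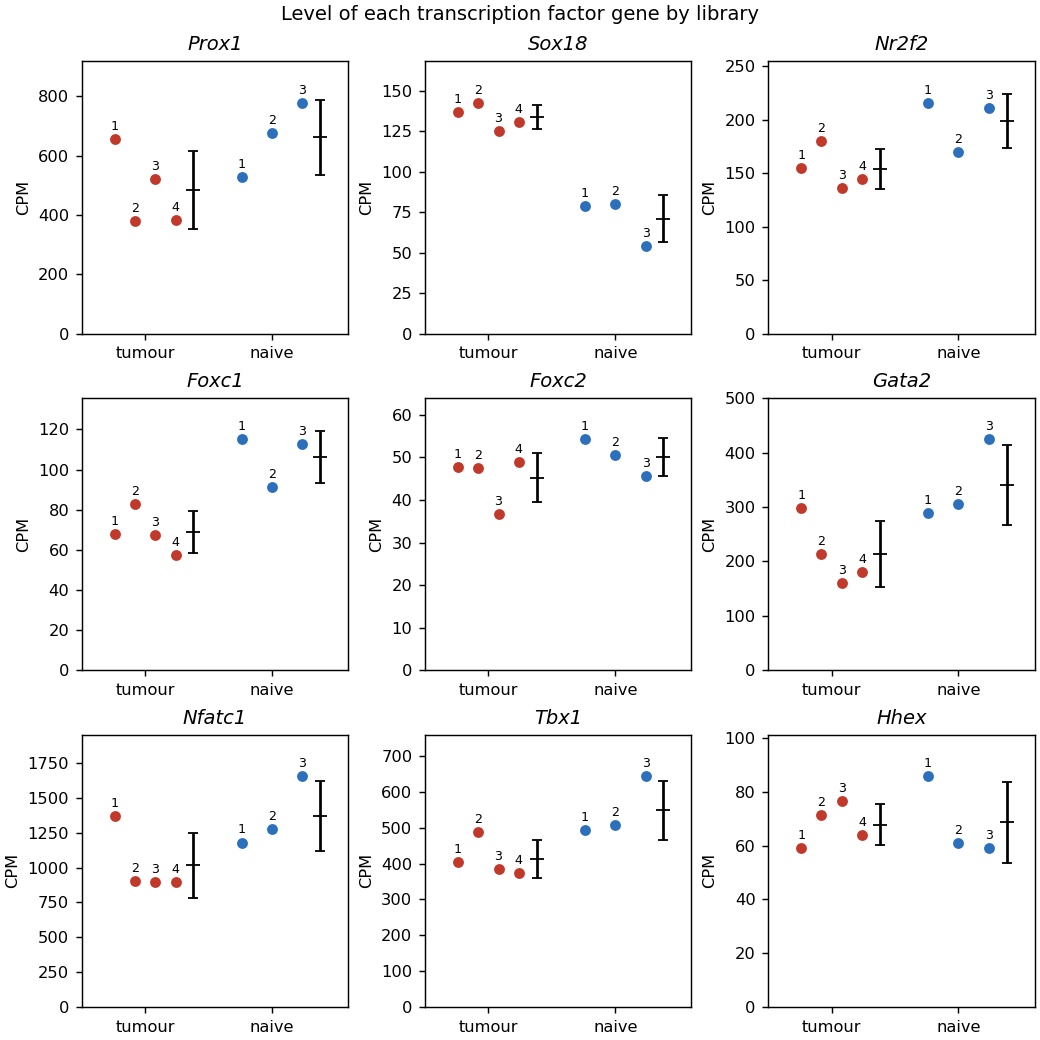
Level of the 9 genes in CPM (vertical axes, each from 0) in the 4 tumour (red) and 3 naive (blue) libraries. Points are libraries with their replicate number, and the black bar is the mean with its SD. Sox18 is the panel in which all tumour libraries (125 to 143 CPM) stand above all naive libraries (54.2 to 79.8 CPM), and in Foxc1 and Tbx1 all tumour libraries stand below.

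Nr2f2 encodes the nuclear receptor that gives venous identity and precedes Prox1 in the lineage. It had 155, 180, 136 and 145 CPM in tumour replicates 1 to 4, against 216, 169 and 211 CPM in naive replicates 1 to 3. Tumour replicate 2 was above naive replicate 2, so the groups overlapped, and the log2 fold change of -0.37 did not pass (SE 0.15, 95% interval -0.71 to -0.03, adjusted p = 0.256). On the opposite strand, B130024G19Rik overlaps the Nr2f2 gene (chromosome 7, 70351944 to 70366735). Reads of the pair cannot be told apart without strand, and B130024G19Rik had 1.92 to 11.5 CPM in tumour and 3.06 to 11.4 CPM in naive libraries.

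Hhex encodes a homeobox factor that controls Prox1 and lymphatic growth in the mouse. Its level was 59.3, 71.4, 76.8 and 64.0 CPM in tumour replicates 1 to 4, against 85.9, 61.0 and 59.0 CPM in naive replicates 1 to 3. The groups overlapped across nearly their whole range, with naive libraries at both ends. Its log2 fold change was -0.02 (SE 0.19, 95% interval -0.45 to 0.42, adjusted p = 0.98), an interval that holds folds of 0.73 to 1.34, and its sign turned under several alternatives (0.18 without naive replicate 1, 0.05 with upper-quartile scaling).

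Prox1 itself lies on chromosome 1 from 190118035 to 190170714. It had 655, 380, 521 and 382 CPM in tumour replicates 1 to 4, against 529.7, 677 and 779 CPM in naive replicates 1 to 3. Tumour replicate 1 lay within the naive range, the other 3 tumour libraries lay below all naive libraries, and the highest tumour library was 1.72 times the lowest. The mean was 484 ± 131 CPM in tumour (SD, n = 4) and 662 ± 125 CPM in naive skin (SD, n = 3). The log2 fold change of -0.45 (SE 0.22, 95% interval -0.96 to 0.05, adjusted p = 0.358) did not pass, and its interval runs from 0.515 to 1.04 times the naive level. In bulk libraries such as these, fewer lymphatic cells and less RNA per cell cannot be told apart. The antisense genes Prox1os and Gm28172 overlap Prox1 and were not analysed here.

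Gata2 encodes a zinc finger factor that acts upstream of Prox1 and Foxc2 in valve-forming cells and is also a factor of blood stem cells and mast cells. Its level was 298, 214, 160 and 180 CPM in tumour replicates 1 to 4, against 289, 306 and 424 CPM in naive replicates 1 to 3. Tumour replicate 1 alone reached the naive range, and tumour replicate 3 was the lowest library. Its log2 fold change was the most negative of the 9 members (-0.67, SE 0.23, fold 0.627 with a 95% interval of 0.435 to 0.904, adjusted p = 0.184). Mast cell transcripts varied among the same libraries. Summed over 8 markers they had 54.8, 119, 1.39 and 4.51 CPM in tumour replicates 1 to 4, against 3.88, 19.0 and 30.6 CPM in naive replicates 1 to 3. Ms4a2 was at 0 in every library. Fcer1a had 27, 195, 0 and 0 counts in tumour replicates 1 to 4 and 0 in all naive libraries. Of 5 tested markers edgeR called 0, beside 1.70% of all genes tested. At an unadjusted p of 0.05 it was also 0, beside 16.9%, and DESeq2 called 0, beside 10.8% of all genes it adjusted. The 2 tumour libraries with more mast cell RNA were also the 2 with more Gata2. Within that pair, tumour replicate 2 had more mast cell RNA and less Gata2 than tumour replicate 1. Naive replicate 1, with a marker sum of 3.88 CPM, had more Gata2 than tumour replicate 2. The part of mast cells in Gata2 was not tested.

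Foxc1 and Foxc2 encode closely related forkhead factors. Foxc2 is needed for lymphatic valves and collecting vessels, and in people its mutation causes lymphoedema with distichiasis. Foxc1 had 68.1, 82.7, 67.2 and 57.4 CPM in tumour replicates 1 to 4, against 115, 91.3 and 113 CPM in naive replicates 1 to 3. All tumour libraries lay below all naive libraries. The mean was 68.8 ± 10.4 CPM in tumour (SD, n = 4) and 106 ± 13.1 CPM in naive skin (SD, n = 3), and the log2 fold change of -0.63 (SE 0.17, 95% interval -1.02 to -0.23) missed the threshold with an adjusted p of 0.118. DESeq2 called it (log2 fold change -0.61, adjusted p = 0.0144), a test that called 10.8% of the genes it adjusted.

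Foxc2 stood at 47.7, 47.6, 36.6 and 48.9 CPM in tumour replicates 1 to 4, against 54.3, 50.5 and 45.5 CPM in naive replicates 1 to 3. The groups overlapped, and tumour replicate 3 was the lowest library. For Foxc2 the log2 fold change was -0.15 (SE 0.18, 95% interval -0.57 to 0.27, adjusted p = 0.778). The ratio of Foxc2 to Foxc1 counts within a library was 0.701, 0.576, 0.545 and 0.853 in tumour replicates 1 to 4, against 0.472, 0.553 and 0.404 in naive replicates 1 to 3, and tumour replicate 3 fell just under naive replicate 2. Foxc1 lies on chromosome 13 from 31806633 to 31812476 and Foxc2 on chromosome 8 from 121116171 to 121118895. The gene model Gm20388, on the same strand, spans Foxc2 and was not analysed here.

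Nfatc1 encodes the calcineurin-dependent factor that works with Foxc2 in valve formation. It had 1368, 900.5, 898.7 and 895 CPM in tumour replicates 1 to 4, against 1180, 1277 and 1656 CPM in naive replicates 1 to 3. Tumour replicate 1 lay within the naive range, while the other 3 tumour libraries lay almost on top of each other and below it. For Nfatc1 the log2 fold change was -0.43 (SE 0.20, 95% interval -0.88 to 0.01, adjusted p = 0.309).

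Tbx1 encodes a T-box factor that in the mouse promotes lymphatic growth through Flt4. It had 404, 488, 385 and 373 CPM in tumour replicates 1 to 4, against 494, 507 and 644 CPM in naive replicates 1 to 3. All tumour libraries lay below all naive libraries, though tumour replicate 2 and naive replicate 1 differed by little. The log2 fold change of -0.41 (SE 0.15, 95% interval -0.75 to -0.08, adjusted p = 0.203) did not pass.

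**Figure D2:**
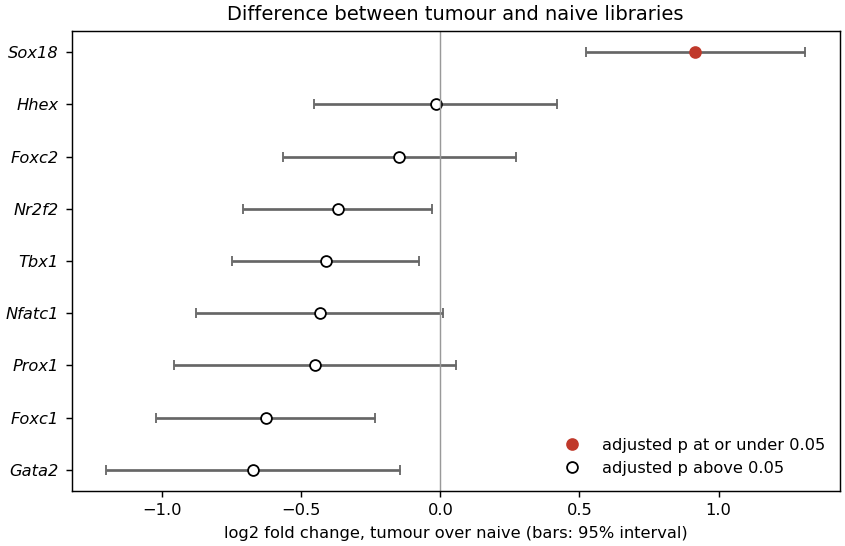
Log2 fold change of tumour over naive (horizontal axis) for each gene with its 95% interval, not adjusted for the number of genes. The filled point is Sox18 at 0.92, past the adjusted threshold, and the open points, from Hhex at -0.02 to Gata2 at -0.67, are not.

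Read together, 8 of the 9 log2 fold changes were negative and the median was -0.41, beside a median of 0.04 over all genes tested, of which 6392 were negative and 7061 positive. At an unadjusted p of 0.05, 5 members passed (Sox18 higher, and Nr2f2, Foxc1, Gata2 and Tbx1 lower), where 16.9% of all genes tested passed, 9.10% higher and 7.83% lower. The groups did not overlap for 3 members (Sox18, Foxc1 and Tbx1, or 33.3%), beside 18.0% of all genes tested. Of all genes tested 9.57% lay apart in the higher direction, as Sox18 did, and 8.46% in the lower direction, as Foxc1 and Tbx1 did. The libraries differed in which members they held most of: tumour replicate 1 was the highest tumour library for 3 members and tumour replicate 2 for 4, while tumour replicates 3 and 4 were the lowest for 4 and 3.

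Counts were also set against those of the endothelial genes Pecam1 and Cdh5, which all endothelial cells carry, since fibroblast RNA took a larger share of the tumour libraries. Per 100 counts of Pecam1 and Cdh5 together, Sox18 had 18.3, 18.8, 16.8 and 20.0 counts in tumour replicates 1 to 4, against 10.7, 10.5 and 6.48 counts in naive replicates 1 to 3. On this scale the groups of Sox18, Foxc1 and Tbx1 stayed apart, and those of the other members overlapped. Tbx1 had 51.7 to 64.3 counts in tumour and 66.6 to 76.9 counts in naive libraries. In the fit with library sizes taken from Pecam1 and Cdh5, the log2 fold change of Sox18 was 1.003 (adjusted p = 0.0464). Foxc1 had 9.45 ± 0.982 counts in tumour (SD, n = 4) and 13.7 ± 1.84 counts in naive skin (SD, n = 3) per 100 of these counts, and Prox1 66.5 ± 16.2 and 84.7 ± 11.2 counts in tumour and naive skin. The log2 fold change in that fit was -0.53 for Foxc1 and -0.35 for Prox1, and neither passed.

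Ratios between members within a library need no scaling. For each count of Prox1 there were 0.209, 0.375, 0.240 and 0.343 counts of Sox18 in tumour replicates 1 to 4, against 0.149, 0.118 and 0.0696 in naive replicates 1 to 3. Relative to Nr2f2, its partner upstream of Prox1, Sox18 had 0.881, 0.794, 0.917 and 0.904 counts in tumour replicates 1 to 4, against 0.365, 0.471 and 0.257 in naive replicates 1 to 3. In both ratios the groups stood apart. Gata2 per count of Nfatc1 was 0.218, 0.238, 0.178 and 0.202 in tumour replicates 1 to 4, against 0.245, 0.240 and 0.256 in naive replicates 1 to 3, and there too the groups did not overlap, by a narrow margin between replicate 2 of each. The ratios of Nr2f2, Gata2, Hhex, Foxc1, Foxc2, Nfatc1 and Tbx1 to Prox1 overlapped between the groups. These ratios are descriptions and were not tested.

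**Figure D3:**
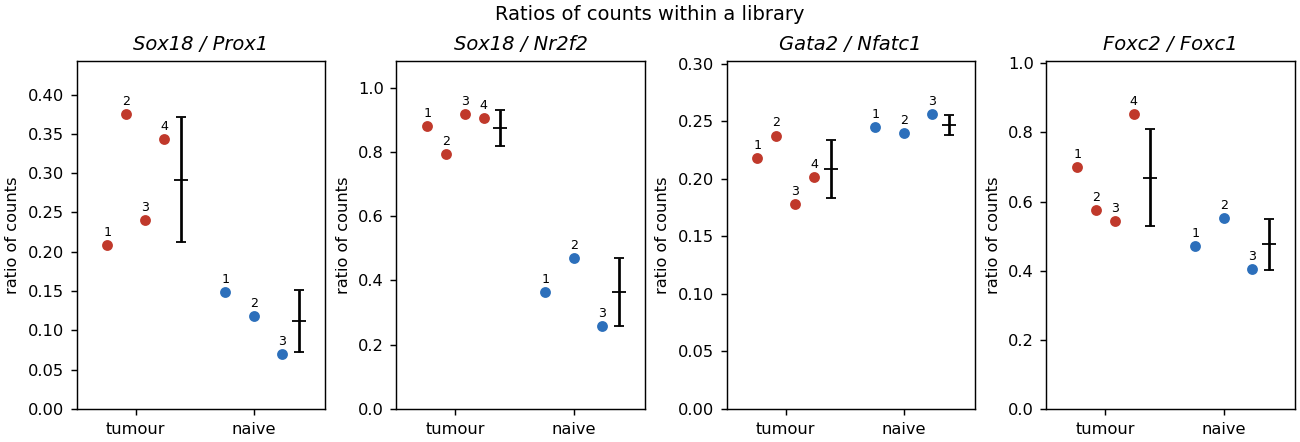
Ratios of counts within a library (vertical axes, from 0) for 4 pairs of the genes in the 4 tumour (red) and 3 naive (blue) libraries, with the replicate number at each point and the mean with its SD in black. Sox18 to Nr2f2 shows the widest gap, 0.794 to 0.917 in tumour and 0.257 to 0.471 in naive libraries, and Foxc2 to Foxc1 overlaps.

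Levels can be compared between genes only per length. Per kilobase of exon (the union of annotated exons), Nfatc1 averaged 136 ± 31.5 CPM and Tbx1 117 ± 14.8 CPM in tumour (SD, n = 4), against 184 ± 33.7 CPM for Nfatc1 and 156 ± 23.6 CPM for Tbx1 in naive skin (SD, n = 3), and the libraries of these 2 genes overlapped in both groups. Sox18 was the third in tumour at 82.6 ± 4.66 CPM per kilobase (SD, n = 4) and the fifth in naive skin at 43.8 ± 8.93 CPM per kilobase (SD, n = 3). Prox1 had 57.7 ± 15.7 and Gata2 39.5 ± 11.3 CPM per kilobase in tumour (SD, n = 4), against 78.9 ± 14.9 and 62.98 ± 13.6 CPM per kilobase in naive skin (SD, n = 3), and these neighbours overlapped in both groups. In tumour the Sox18 libraries (77.2 to 88.1) overlapped only with the top of Prox1 (45.3 to 78.0), whereas in naive skin they (33.5 to 49.2) lay below all libraries of Prox1 (63.1 to 92.9) and of Gata2 (53.6 to 78.6).

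Nr2f2, Foxc2, Foxc1 and Hhex made up the low end. Per kilobase they averaged 17.9, 16.6, 11.8 and 13.4 CPM in tumour, against 23.05, 18.4, 18.2 and 13.6 CPM in naive skin. Next to each other in order, these genes overlapped within each group. The order depends on the length used. With the longest coding transcript of each gene, Nfatc1 and Tbx1 stayed the top pair in both groups and Sox18 the third in tumour, but in naive skin Sox18 was the sixth, behind Gata2, Prox1 and Nr2f2.

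**Figure D4:**
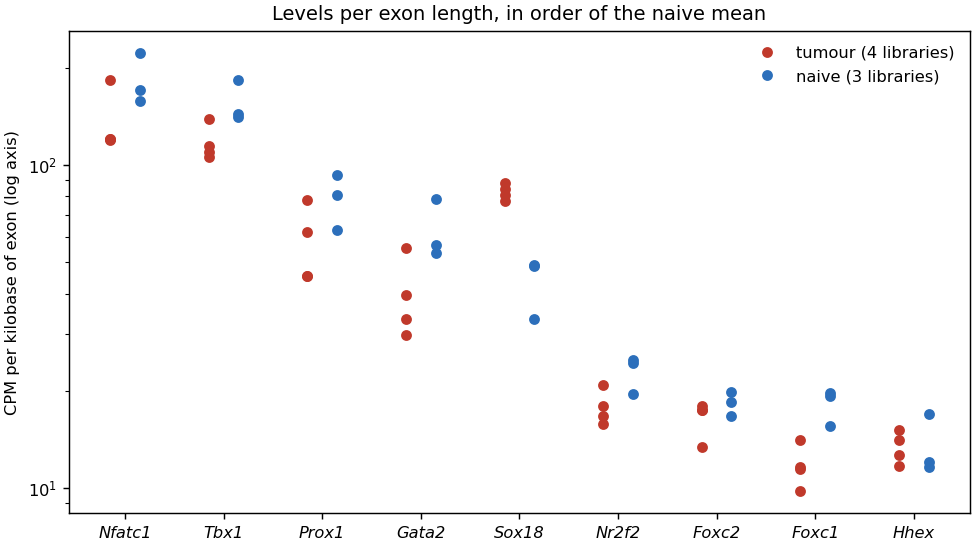
Level in CPM per kilobase of exon (vertical log axis) of each gene in the 4 tumour (red, left) and 3 naive (blue, right) libraries, ordered by the naive mean. Nfatc1 and Tbx1 lead in both groups, and Sox18 lies between 77.2 and 88.1 in tumour, against 33.5 to 49.2 in naive libraries.

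Each gene's profile over the 7 libraries was compared with those of 7588 other tested genes, by the root-mean-square difference of centred log2 CPM. The 3 nearest to Sox18 were Rnf5 (0.0853), Hmgn3 (0.134) and Erh (0.147), beside a spread of 0.496 for Sox18 itself, and of these Rnf5 had a log2 fold change of 0.93 that did not pass (adjusted p = 0.0771). No member resembled it, the nearest being Hhex at 0.509. The nearest to Prox1 were Azi2 (0.0973), Pkn2 (0.0982) and Pcmtd1 (0.108), and among members Nfatc1 (0.154). The nearest to Gata2 were BC046331 (0.0437), Pptc7 (0.0591) and Nod1 (0.0901), and among members again Nfatc1 (0.171). For Foxc1 they were Brox, Pim3 and Pmp22 (0.0707 to 0.0988), for Nr2f2 Spin1, Srrm1 and Rcor3 (0.0655 to 0.0757), and for Tbx1 Nfia, Golgb1 and Zfp384 (0.0668 to 0.0740). For Nfatc1 they were Gas2l1, Pcnt and Clstn1 (0.0662 to 0.0773), for Foxc2 Blzf1, Cct4 and Trp53i13 (0.0681 to 0.0806), and for Hhex Cox5b, Abhd12 and Dnajc4 (0.0583 to 0.0681). Tbx1 and Nr2f2 were each other's nearest members (0.131).

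The wider set of endothelial transcription factor genes held 34 members, of which 32 were tested, 1 rose, 1 fell and 30 did not pass, beside 1.70% called among all genes tested. DESeq2 called 6 (Elk3, Tal1, Klf4, Bcl6b, Tbx3 and Prox2), beside 10.8% of all genes it adjusted, and limma-voom 3, beside 269 of all genes tested. Over the list the median log2 fold change was -0.10, and of the 32 tested genes 23 had negative and 9 positive values. A lean to negative values was thus not particular to the 9 members. Summed over the list the level was 4142 to 4902 CPM in tumour and 5248 to 5615 CPM in naive libraries. Klf4, a Krüppel-like factor gene induced by flow, fell with a log2 fold change of -1.09 (adjusted p = 0.0219). Elk3, an ETS factor gene of the vessel wall, had 488, 500, 462 and 471 CPM in tumour replicates 1 to 4, against 328, 340 and 329 CPM in naive replicates 1 to 3, and rose by 0.53 on the log2 scale (adjusted p = 0.0452). The libraries of each group lay close together for Elk3, as they did for Sox18 in tumour. Tal1, a helix-loop-helix factor gene of blood and endothelium that partners with Gata2, had 19.9 ± 5.20 CPM in tumour (SD, n = 4) and 47.6 ± 9.31 CPM in naive skin (SD, n = 3) and missed the threshold (log2 fold change -1.26, adjusted p = 0.06). Tal1 passed with DESeq2 (0.000908), limma-voom (0.0422), limma on the deposited log2 values (0.0489) and the filter of 5 CPM (0.0426). Bcl6b, a repressor gene of endothelium, had 64.0 ± 4.71 and 93.6 ± 7.79 CPM in tumour and naive skin (adjusted p = 0.107), and passed with DESeq2 (0.00596).

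The closest relatives of Sox18 were also in that list. Sox7 had 299.7 ± 79.7 CPM in tumour (SD, n = 4) and 370.1 ± 98.7 CPM in naive skin (SD, n = 3), and Sox17 6.49 ± 3.81 and 3.16 ± 1.91 CPM, and neither passed (adjusted p = 0.631 and 0.587). These 2 genes were picked for their kinship to Sox18 with their values already known. The call of Klf4 was lost without naive replicate 1 (adjusted p = 0.105), 2 (0.0687) or 3 (0.0799), with the replicate block (0.159) and with lane as a term (0.547). That of Elk3 was lost without any 1 library, at 0.0683, 0.0841, 0.0869 and 0.0821 without tumour replicates 1 to 4 and 0.175, 0.136 and 0.145 without naive replicates 1 to 3, and also with no filter on low counts (0.0587), with the replicate block (0.287) and with lane as a term (0.586).

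Of 22 genes of lymphatic identity and function that lie downstream of, or are used alongside, these factors, 0 passed (edgeR), beside 1.70% of all genes tested. At an unadjusted p under 0.05 there were 4, beside 16.9% of all genes tested. DESeq2 called 4 (Lyve1, Nrp2, Angpt2 and Sema3d), beside 10.8% of all genes it adjusted, and limma-voom 0, beside 269 of all genes tested. Of these 4, Sema3d had a negative log2 fold change and the others positive ones. Over all 22 genes the median log2 fold change was 0.05. Those with the highest CPM were Mmrn1, a secreted multimerin, at 4690 ± 896 CPM in tumour (SD, n = 4) and 5818 ± 1111 CPM in naive skin (SD, n = 3), and Fgl2, a fibrinogen-like gene, at 5561 ± 1053 and 6193 ± 517 CPM. Neither passed (adjusted p = 0.478 and 0.737). Flt4, the lymphatic growth factor receptor gene, stood at 1200 ± 34.4 CPM in tumour (SD, n = 4) and 1259 ± 327 CPM in naive skin (SD, n = 3).

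Of 28 genes of lymphatic valves and collecting vessels, 1 rose, 2 fell and 25 did not pass, beside 1.70% called among all genes tested, and the median log2 fold change was 0.05. At an unadjusted p of 0.05, 11 passed, beside 16.9% of all genes tested, and the groups did not overlap for 11, beside 18.0%. DESeq2 called 7 (Gja4, Gja1, Fn1, Efnb2, Nrp1, Angpt2 and Klf4), beside 10.8%, and limma-voom 4, beside 269 of all genes tested. Nrp1, a co-receptor gene for semaphorins and vascular growth factors that is also a marker of blood endothelium, was the member that rose, at 28.7 ± 2.98 CPM in tumour (SD, n = 4) with 1, 1 and 3 counts in naive replicates 1 to 3 (adjusted p = 0.000322). Efnb2, an ephrin gene needed for valves, had 240, 194, 168 and 184 CPM in tumour replicates 1 to 4, against 349, 320 and 520 CPM in naive replicates 1 to 3. It fell by 1.01 on the log2 scale (adjusted p = 0.0452), with an adjusted p of 0.0854, 0.101 and 0.109 without tumour replicates 2 to 4 and 0.116, 0.0741 and 0.135 without naive replicates 1 to 3, 0.287 with the replicate block and 0.388 with lane as a term. Klf4, the other member that fell, also stands in the list of transcription factors. Fn1, the fibronectin gene, had 372, 287, 369.7 and 862 CPM in tumour replicates 1 to 4, against 129, 146 and 176 CPM in naive replicates 1 to 3, and every tumour library lay above every naive library. Its log2 fold change of 1.65 did not pass (adjusted p = 0.0693). It passed without tumour replicate 4 (log2 fold change 1.20, adjusted p = 0.0395), with DESeq2 (5.5e-05), limma-voom (0.0474), limma on the deposited log2 values (0.0464) and the filter of 5 CPM (0.0357). Fibroblasts also make fibronectin, and their part in Fn1 was not tested.

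Calcineurin activates NFAT factors, and of 16 genes of that pathway 14 were tested and 0 passed (edgeR), beside 1.70% of all genes tested. At an unadjusted p under 0.05 there were 4, beside 16.9% of all genes tested. DESeq2 called 0, beside 10.8% of all genes it adjusted, and limma-voom 0, beside 269 of all genes tested. The median log2 fold change was -0.26. Rcan1, a calcineurin inhibitor gene that NFAT factors induce, had 543 ± 120.0 CPM in tumour (SD, n = 4) and 646 ± 170 CPM in naive skin (SD, n = 3), and its log2 fold change of -0.25 did not pass (adjusted p = 0.671). Ppp3ca, which encodes a catalytic subunit of calcineurin, had 468, 419, 360 and 376 CPM in tumour replicates 1 to 4, against 484, 492 and 517 CPM in naive replicates 1 to 3 (log2 fold change -0.29, adjusted p = 0.281). Its groups did not overlap.

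A tag in the sample descriptions, read here as the sequencing lane, put tumour replicates 1, 2 and 4 on lane 6, naive replicates 1 and 2 on lane 7, and tumour replicate 3 and naive replicate 3 on lane 8. Outside lane 8, lane and group cannot be told apart. Within lane 8, where 1 tumour library stands against 1 naive library, Sox18 had 125 CPM in tumour and 54.2 CPM in naive skin, a log2 difference of 1.21. This pair also differs in sex, with female mice for the tumour library and male mice for the naive one. Of the naive libraries, replicate 3 was the lowest for Sox18 and the highest for Prox1, Gata2, Nfatc1 and Tbx1. In the same pair Gata2 differed by -1.40, Nfatc1 by -0.88, Tbx1 by -0.74, Foxc1 by -0.74, Nr2f2 by -0.63, Prox1 by -0.58, Foxc2 by -0.31 and Hhex by 0.38 on the log2 scale, so the direction of Hhex alone was the other one. With lane as a term no member passed. Since only lane 8 holds both groups, that fit takes its difference between tumour and naive from this same pair.

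**Figure D5:**
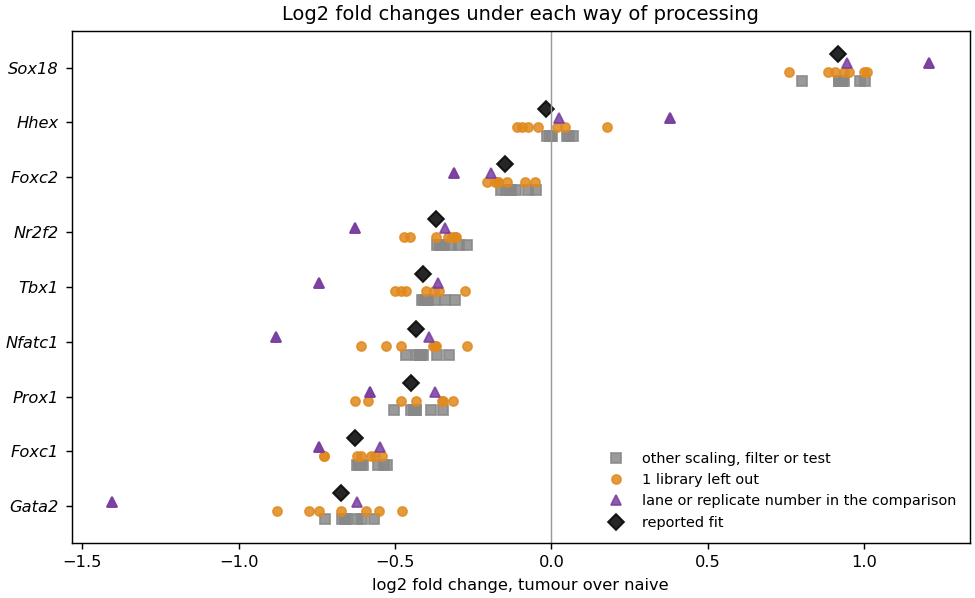
Log2 fold change of tumour over naive (horizontal axis) for each gene in the reported fit (black diamond), under other scalings, filters and tests (grey squares), with 1 library left out (orange circles), and with lane or replicate number in the comparison (purple triangles, which include the single pair of lane 8). Sox18 stays between 0.76 and 1.21 and Gata2 between -1.40 and -0.48, and Hhex is the only gene with points on both sides of 0.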

How the data were processed

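Per the labels' protocols, RNA came from Qiagen RNeasy Micro columns and libraries from Takara's SMART-Seq v4 chemistry for low input, which does not mark the strand, so overlapping genes cannot be told apart. Per the submitters' processing notes, Trimmomatic 0.38 and mm10 were used. Aligner, counter, annotation and normalization are not given there or elsewhere in the sources used. Per gene, the authors deposited raw counts, used for all tests, and normalized values on a log2 scale, used in 1 alternative.

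Entries whose symbol a spreadsheet had turned into a date (25 of 26608, 0.174% to 0.236% of the counts) were left out. Genes were kept by filterByExpr, scaled by TMM and compared with edgeR 4.0.16 (robust quasi-likelihood fit, glmQLFTest) in R 4.3.3, with Benjamini-Hochberg adjustment at 0.05, in 1 fit over all 13453 genes. The pipeline was tested on simulated data, where all 200 genes changed 4-fold were recovered. The simulation had a smaller typical spread between libraries than these data, so it does not speak to the smaller differences of the members. CPM use TMM-adjusted library sizes, and log2 CPM a prior count of 2. Each SE was taken as the log2 fold change over the root of F, and intervals use the fit's degrees of freedom. Alternatives used DESeq2 1.42.0 and limma 3.58.1. Positions are from GENCODE M21 (GRCm38, the assembly of mm10). Promoters are from RefSeq (GRCm38.p6).

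The members and lists were chosen with earlier results of these data known. Named genes were all members, from each list the 4 with the smallest p or, where none passed, the 2 with the highest CPM, and for each member the 3 genes of nearest profile with a mean log2 CPM of at least 4. Others named were markers of the labelled cell type, or were chosen after their values were seen. Older symbols were matched (Emr1 for Adgre1, Fam38a for Piezo1, Foxf1a for Foxf1, Clca1 for Clca3a1), and Trac was not matched. For marker lists not described in the report, edgeR called 0 of 2 tested mural, 0 of 1 lymphocyte, 0 of 7 keratinocyte and 0 of 1 adipocyte genes, beside 1.70% of all genes tested. At an unadjusted p of 0.05 these 4 lists had 1, 0, 2 and 0 genes, beside 16.9% of all genes tested. By DESeq2 they had 1, 0, 2 and 0, beside 10.8% of all genes it adjusted. Lists this short can say little about whether such cells were absent. The other listed genes, apart from Trac, did not pass the filter on counts, though some had counts in some tumour libraries. Acta2, a mural gene, had 404 and 1253 counts in tumour replicates 3 and 4 and 0 in all naive libraries. Trp63, a keratinocyte gene, had 125 and 542 counts in tumour replicates 1 and 3.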

Additional observations from a re-analysis of the deposited data

Results flagged for a closer look

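In 3 of the 20 named genes tested, 1 tumour library stood far from the other 3. Chance alone flags about 1 in 20 groups. Nfatc1 had 1368 CPM in tumour replicate 1, against 895 to 900.5 CPM in the other tumour libraries. Foxc2 had 36.6 CPM in tumour replicate 3, against 47.6 to 48.9 CPM in the others. Fn1 had 862 CPM in tumour replicate 4, the library with the highest fibroblast marker sum (18334 CPM), against 287 to 372 CPM in the others.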

How the results depend on the processing

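Of the 9 members, 8 kept their direction in all 19 alternatives. Among these, lane as a term and the lane 8 pair are the same comparison. Hhex turned to 0.055 with upper-quartile scaling, 0.051 with limma-voom, 0.0022 with a filter of 5 CPM in 3 libraries, 0.025 with the replicate block, 0.38 with lane as a term and within lane 8, 0.070 with library sizes from Pecam1 and Cdh5 (an alternative chosen after seeing the data), and ranged from -0.11 to 0.18 with 1 library left out. Rcan1 turned to 0.24 with lane as a term and within lane 8. Sox18 lost the call with the replicate block (adjusted p = 0.186) and with lane as a term. The number of members past the threshold was 2 with DESeq2, 0 with the replicate block, 0 with lane as a term and 0 to 0 with 1 library left out. The cause was not tested, but each of the last 3 has fewer residual degrees of freedom. The fit with lane as a term also takes its difference from the lane 8 pair alone. The number of genes past the threshold was 229 as reported, 1513 with DESeq2 (947 higher, 566 lower), 356 with limma on the deposited log2 values, 359 with the filter of 5 CPM, 3 with the replicate block, 0 with lane as a term (edgeR, 1169 at an unadjusted p under 0.05), and 7 to 171 with 1 library left out (171, 164, 127 and 102 without tumour replicates 1 to 4, 7, 33 and 25 without naive replicates 1 to 3). The higher and lower calls split 121 to 108 as reported, 156 to 92 with upper-quartile scaling, 99 to 170 with limma-voom and 161 to 80 with library sizes from Pecam1 and Cdh5. Replicate numbers did not pair the libraries: deviations of same-numbered libraries correlated at -0.0367 to -0.0064, and tumour replicate 4 has no partner.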
